A study of Mus musculus with 2 samples.

Results

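The mouse genome encodes families of Golgi enzymes that build, lengthen and cap the sugar chains of glycoproteins and glycolipids. Here the expression of 77 of them was examined in the small intestine of 1 adult mouse. The 77 were all the protein-coding genes whose symbol begins with Galnt and a digit, B3gnt, B3galt, B4galt, B4galnt, Gcnt, C1galt, Fut and a digit, St3gal, St6gal or St8sia, out of 21474 protein-coding genes and 43346 Ensembl genes in the tables. By the step they carry out, 17 were initiating enzymes, 8 core and branching enzymes, 24 chain extension enzymes, 8 fucosyltransferases and 20 sialyltransferases. The choice was by symbol, with no expression threshold, and was made with earlier results of these data known.

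The tissue came from a female C57BL/6J mouse aged 10 weeks, with no treatment named in the labels. Poly(A) RNA was sequenced in 2 technical libraries of 1 biological replicate, here called the first library (technical replicate 1) and the second library (technical replicate 2, prepared later). No condition was compared. Values are given for the first and then the second library, and the spread between them is technical, so no value describes variation between mice. The labels do not say which stretch of the intestine was taken or which cells it held, and in such a bulk sample fewer cells of a type and less RNA per cell cannot be told apart.

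Mucin-type sugar chains begin when a Galnt enzyme places N-acetylgalactosamine on a serine or threonine of the protein. C1galt1, working with its chaperone C1galt1c1, adds galactose to make the simplest core, and Gcnt enzymes add branches. B3gnt and B4galt enzymes then alternate N-acetylglucosamine and galactose to lengthen the chain, and fucosyltransferases and sialyltransferases place the terminal sugars that bacteria, viruses and lectins meet at the gut surface. The same extension and capping families act on N-linked chains and on glycolipids, and the intestinal mucus layer is made of densely glycosylated mucins.

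The coding starts of 5 of the genes are shown because the difference between the libraries followed base composition. They are the 2 genes of lowest and the 2 of highest log2 ratio among those that reached 10 TPM in at least 1 library, with St3gal4, the most abundant of the 77. They were picked after the values were seen, leaving out genes that share reads with a neighbour. Each line gives the 150 bases from the start codon, 5′ to 3′, and capitals mark runs of 4 or more G or C bases. The sequences are from GENCODE M21 on mm10.
C1galt1: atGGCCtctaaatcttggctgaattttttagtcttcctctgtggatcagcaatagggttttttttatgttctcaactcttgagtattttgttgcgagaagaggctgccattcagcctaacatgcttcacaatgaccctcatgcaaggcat
St3gal6: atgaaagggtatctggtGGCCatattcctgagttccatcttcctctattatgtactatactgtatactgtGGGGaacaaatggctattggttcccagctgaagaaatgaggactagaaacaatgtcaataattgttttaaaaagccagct
St3gal4: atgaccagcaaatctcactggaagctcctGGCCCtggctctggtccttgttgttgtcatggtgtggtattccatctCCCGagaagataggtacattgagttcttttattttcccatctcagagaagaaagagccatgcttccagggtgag
Galnt10: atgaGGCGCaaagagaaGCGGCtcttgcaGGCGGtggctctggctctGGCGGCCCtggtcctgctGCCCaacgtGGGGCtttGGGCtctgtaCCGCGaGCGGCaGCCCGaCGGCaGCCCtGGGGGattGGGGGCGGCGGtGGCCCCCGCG
B4galnt1: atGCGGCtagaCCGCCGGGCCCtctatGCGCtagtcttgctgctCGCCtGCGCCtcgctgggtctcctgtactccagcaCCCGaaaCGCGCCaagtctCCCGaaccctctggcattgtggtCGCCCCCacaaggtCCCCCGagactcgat
The C1galt1 stretch lies in exon 2 on the plus strand at chr6:7863922-7864071, and 41.3% of its bases were G or C. The St3gal6 stretch spans 2 exons on the minus strand between chr16:58488921-58493768 and had a GC content of 38.7%. For St3gal4, on the minus strand over 3 exons between chr9:35054734-35055589, it was 48.0%. The Galnt10 stretch, in exon 1 on the plus strand at chr11:57645559-57645708, reached 72.7% and held 15 such runs. For B4galnt1, in exon 2 on the plus strand at chr10:127166005-127166154, it was 65.3% with 10 runs. Averaged over their whole transcripts, GC content rose in the order C1galt1 (39.8%), St3gal6 (42.5%), St3gal4 (51.9%), Galnt10 (57.0%) and B4galnt1 (60.2%) for the transcripts shown. The deposited and M21 lengths of these transcripts differed for C1galt1, St3gal4 and B4galnt1.

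The libraries held 28277864 and 24509856 expected counts after rounding. Mitochondrial genes took 49.2% and 11.4% of all TPM, a level corrected for transcript length and set to the same total for every library. Together with 11 nuclear copies of them they took 72.3% and 21.6%. TPM without rescaling therefore compares genes within a library, and its 2 values for a gene do not compare the libraries. For that, TPM rescaled to the remaining nuclear genes is given for some genes and sums, and the ratio on scaled counts for others. As a sum over 7 genes, enterocyte markers were high in both, at 6133 and 10667 TPM, or 2.22% and 1.36% of nuclear TPM. Fabp2 (3191 TPM) and Sis (2598 TPM) held most of the sum in the first library, where Cdx1 stood at 0.24 TPM. As shares of nuclear TPM, some markers of other cells were higher in the second library, with 0.171% and 1.44% for 7 goblet cell genes, 0.718% and 1.30% for 6 genes of pancreatic acinar cells, 0.205% and 1.04% for 6 genes of plasma and B cells and 0.00602% and 0.0775% for 4 genes of smooth muscle. Other summed shares were lower there, with 0.0503% and 0.0207% for 4 T cell genes and 0.0482% and 0.0228% for 3 fibroblast genes. Single genes of these lists differed, and Gzma made up 131 of the 139 TPM of the T cell list in the first library. On the TMM-scaled counts explained below, the log2 ratio, second over first, was -1.26 for Gzma, 0.96 for Cd3g, 0.72 for Cd3e and 0.07 for Cd8a. In the fibroblast list it was -1.24 for Dcn, -0.70 for Col3a1 and 1.25 for Col1a1. By the test explained below, 5 of the 7 enterocyte genes were called higher in the second library and 1, Sis, in the first. Without the GC trend 2 were called in each direction. None of these lists had a gene at 0 counts in both libraries. Of 4 genes listed for stomach epithelium, Gkn2, Muc5ac and Muc6 were at 0 counts in both and Gkn1 had 1 and 0. The part these cells have in the levels of the 77 genes was not tested.

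The 77 genes together reached 731 TPM in the first library and 2125 TPM in the second. As a share of all TPM this was 0.0731% and 0.213%, but of nuclear TPM it was 0.264% and 0.271%. Of the 77, 30 stood at 1 TPM or more in both libraries, 23 in the second only, 2 in the first only and 22 in neither. With TPM rescaled to nuclear genes, 43 reached that level in both. A few genes held most of the sum. The 10 most abundant accounted for 80.8% of it in the first library and 77.0% in the second, and 6 genes were among the 10 in both. St3gal4 ranked highest in each, with 20.7% and 36.7% of the sum, and B4galnt2 ranked second in each.

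**Figure D1:**
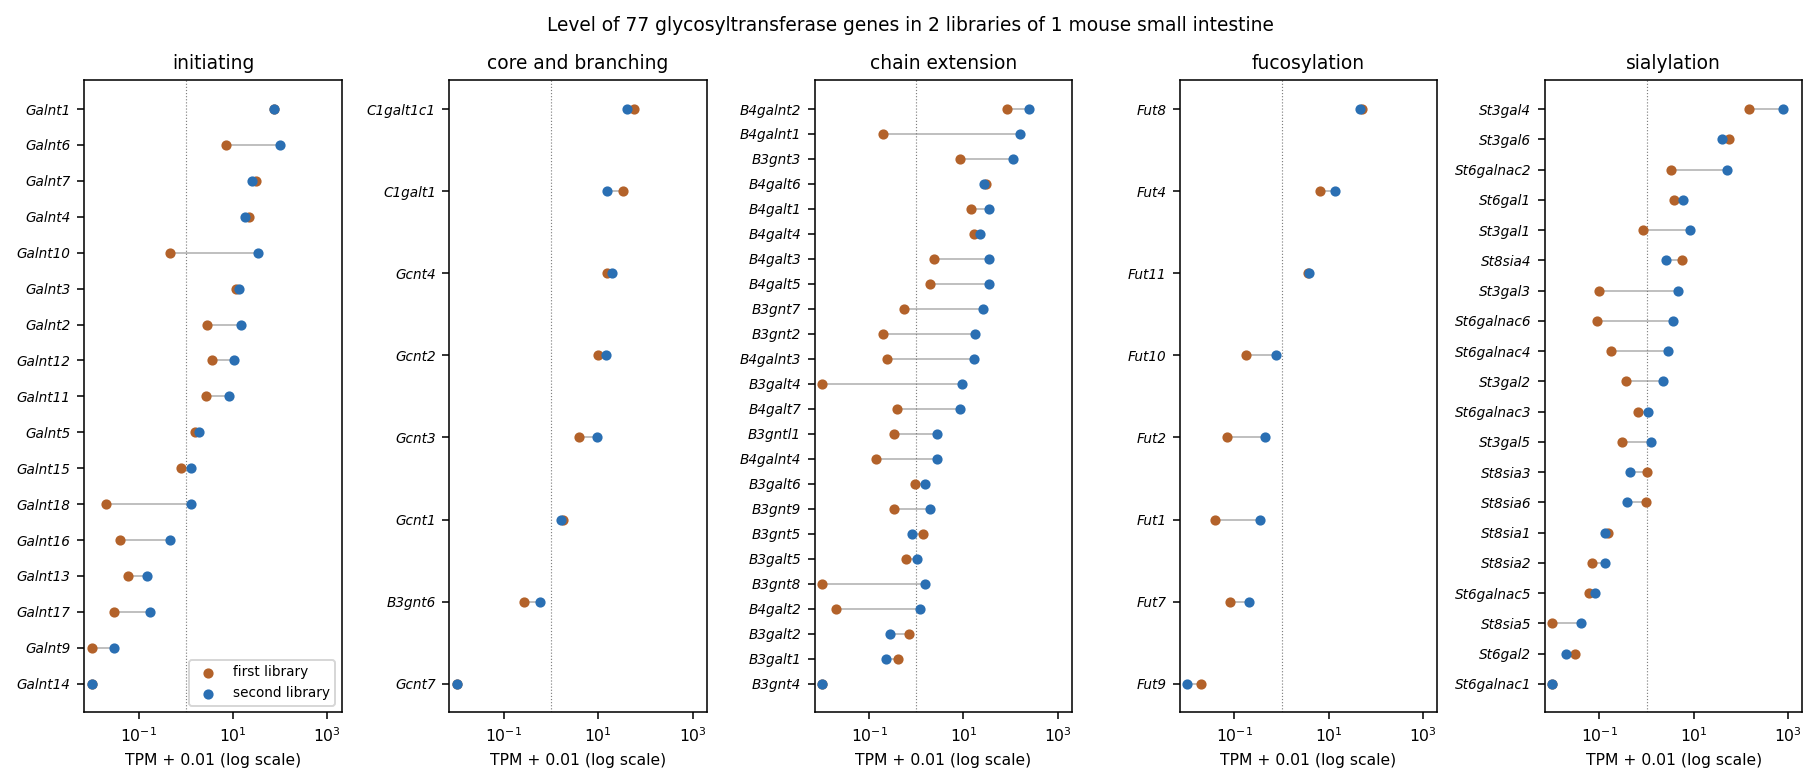
Level of each of the 77 genes by step, as TPM + 0.01 on a log scale (horizontal axis), in the first (brown) and second (blue) library; the dotted line marks 1 TPM, a grey line joins the values of a gene, and points at the left edge are genes listed at 0. St3gal4 stands farthest right in both libraries, and the lines are short for Galnt1, Fut8 and B4galt6 and long for B4galnt1 and Galnt10. TPM was not rescaled to nuclear genes here, so the length of a line is not the scaled difference between the libraries.

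The steps held unequal parts of the sum, in the same order in both libraries but with different shares. Sialyltransferases held 30.8% and 42.5% of the summed TPM and were the largest group in both. Chain extension enzymes held 22.6% and 35.7%. Initiating enzymes held 21.5% and 14.1%, core and branching enzymes 16.6% and 4.76%, and fucosyltransferases 8.60% and 3.06%. These shares are ratios within a library and do not move with its mitochondrial content. They were not corrected for GC content, which the ratio between the libraries followed, as described below.

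**Figure D2:**
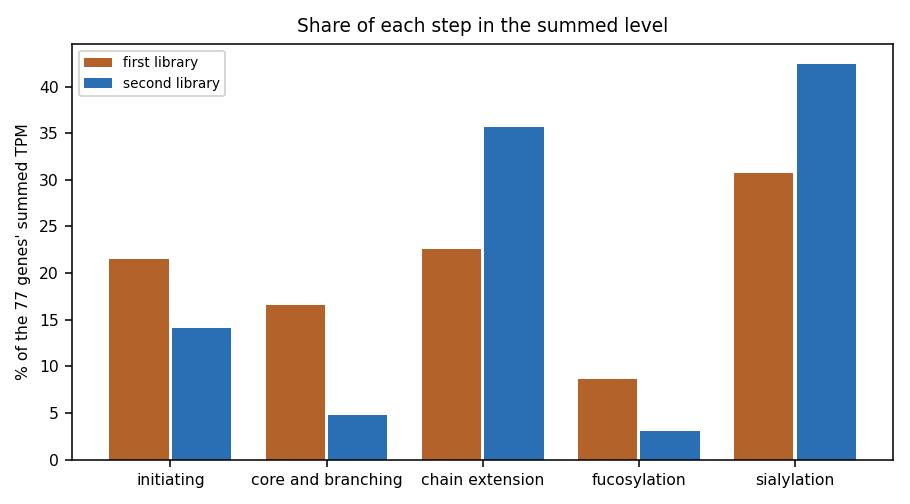
Percent of the summed TPM of the 77 genes (vertical axis) held by each step in the first (brown) and second (blue) library, 1 library per bar, with no error bar because there is no replicate. Sialylation is the tallest pair at 30.8% and 42.5%, and core and branching stands at 16.6% and 4.76%.

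To compare the libraries gene by gene, an exact binomial test was run on counts scaled by TMM (trimmed mean of M values). A gene was called different at a Benjamini-Hochberg adjusted p under 0.05, taken over all 15194 genes with 20 or more counts, and a difference of 2-fold or more. The test compares these 2 libraries and covers counting error only. Of the 77 genes, 66 had enough counts. Higher levels in the second library were called for 28, against a background of 40.2% of all genes tested, and higher levels in the first for 19, against a background of 27.5%. These are 42.4% and 28.8% of the 66, shares near those backgrounds. The median log2 ratio, second over first, was 0.14 for the 66 and 0.26 for all genes tested. The largest adjusted p of a called gene was 0.0337, that of Fut2.

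The ratio followed the GC content of the transcripts. Across the 66 genes Spearman's rho between log2 ratio and GC content was 0.858, and across all 15127 tested nuclear genes it was 0.855. These are descriptions over genes that share both libraries. Of 18 genes under 46% GC, 15 were called higher in the first library and 0 in the second, and their median log2 ratio was -1.56 beside -1.59 for all genes of that range. Of 19 genes from 46% to 52%, 5 were called higher in the second and 4 in the first. Of 13 genes from 52% to 56%, 8 were called higher in the second and 0 in the first. Of 16 genes at 56% or more, 15 were called higher in the second and 0 in the first, and their median was 4.16 beside 4.53 for all genes of that range. What made the libraries differ in this way was not tested.

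**Figure D3:**
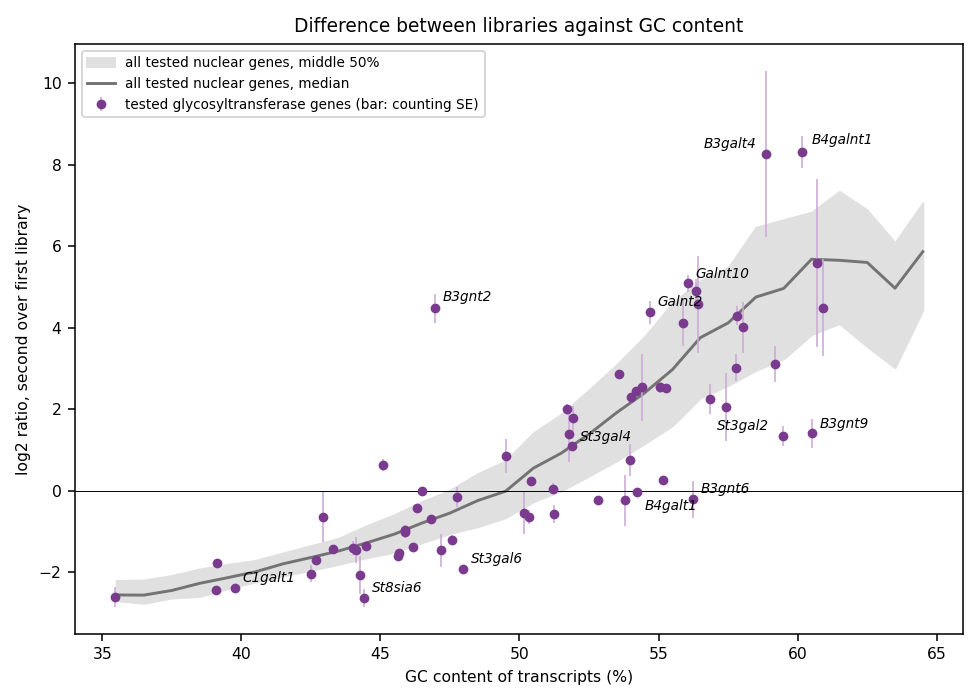
Log2 ratio of the second over the first library (vertical axis, TMM-scaled counts) against the GC content of the transcripts in percent (horizontal axis) for the 66 tested genes (purple, bar: counting standard error), with the median (line) and middle 50% (band) of all tested nuclear genes. The purple points climb with the grey line, and B3gnt2 lies far above it.

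The trend over all tested nuclear genes was therefore also removed from each gene's expected split. Higher levels in the second library were then called for 7 of the 66, against a background of 17.5%, and in the first for 15, against a background of 17.6%. The other 44 were not called. Of the 28 genes called higher in the second library at first, 6 were called so again, and of the 19 called higher in the first, 2 (St3gal6 and St8sia6). Another 5 passed to the opposite call, namely B4galt7, B4galnt4, B3gnt9, St6galnac4 and St3gal2, which are named after their values were seen. The trend was read at a gene's mean GC content over its transcripts, 48.0% for St3gal6 and 44.4% for St8sia6. Their transcripts St3gal6-201 and St8sia6-201 had 42.5% and 41.2%. Near those values the median log2 ratio of all tested nuclear genes was -1.64 and -1.79. Mean GC content was 57.8% for B4galt7, 59.5% for St3gal2, 60.5% for B3gnt9 and 56.8% for St6galnac4. Their transcripts B4galt7-201, St3gal2-201, B3gnt9-202 and St6galnac4-204 had 54.6%, 55.3%, 56.6% and 56.4%. For B4galnt4 and its transcript both were 59.2%. Near 54.6% that median was 2.40, and the ratio of B4galt7 before removal was 3.03. Whether the 2 calls and the 5 opposite calls hold at the GC content of single transcripts was not tested. The median log2 ratio of the 66 became -0.13, beside -0.013 for all genes. For each step, a ratio is the log2 of second over first library on TMM-scaled counts, with its counting standard error (SE), and the ratio without the GC trend stands beside it.

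**Figure D4:**
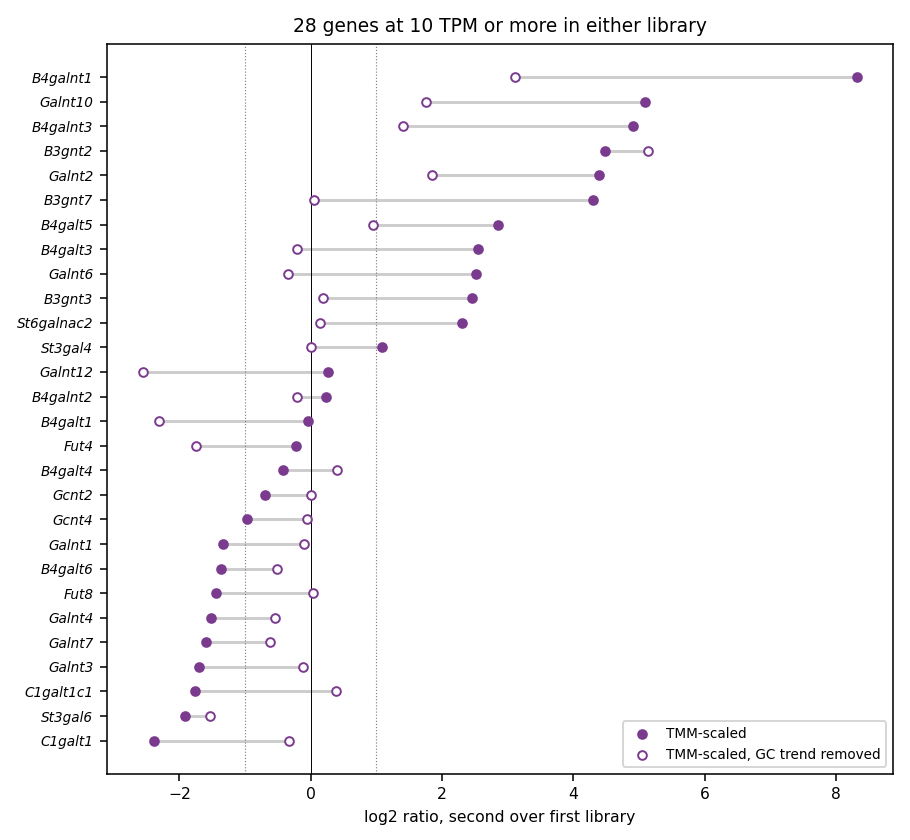
Log2 ratio of the second over the first library (horizontal axis) for the 28 genes that reached 10 TPM in at least 1 library, on TMM-scaled counts (filled) and after removal of the GC trend (open); dotted lines mark 2-fold. Most open points move toward 0, while B4galnt1 stays at 3.11 and B4galt1 moves to -2.30. The trend was read at each gene's mean GC content over its transcripts.

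Among the initiating enzymes, Galnt1 held the highest level in the first library and the second highest, after Galnt6, in the second. Galnt1 stood at 74.9 TPM (95% exact Poisson interval 73.2 to 76.6) and 74.1 TPM (72.0 to 76.3). On nuclear TPM these were 271 and 94.5. It was called higher in the first library at -1.34 (SE 0.027), a call lost at -0.95 with totals without mitochondrial genes. Galnt6 (6.91 and 96.7 TPM) was lower than Galnt1 in the first library and higher in the second. Its ratio was 2.52 (SE 0.056) and, without the GC trend, -0.35, so its direction rests on the treatment of GC content. By mean over both libraries the next were Galnt7 (30.7 and 25.1 TPM) and Galnt4 (21.4 and 18.1 TPM), enzymes known to prefer peptides that already carry a sugar. The intervals of Galnt7 and Galnt4 do not overlap in either library. Galnt3, which also glycosylates the phosphate hormone Fgf23, stood at 11.3 and 13.5 TPM. On nuclear TPM these were 40.7 and 17.3, and its ratio was -1.70 (SE 0.074), or -0.11 without the GC trend.

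Galnt10 was among the most unequal genes of the set. It had 50 and 2668 counts (0.44 and 33.4 TPM) from chr11:57645442-57787514, a ratio of 5.09 (SE 0.20) that stayed called at 1.76 without the GC trend (binomial test, adjusted p = 1.83e-25). Galnt12 (3.64 and 10.5 TPM) had a ratio of 0.26 (SE 0.12) that was not called, and -2.56 without the GC trend, where it was called higher in the first library. Galnt18 had 1 and 55 counts. Of 15 initiating enzymes tested, 6 (40%) were called higher in the second and 5 (33.3%) in the first library. The backgrounds over all genes tested were 40.2% and 27.5%. Without the GC trend 3 and 2 were called, beside backgrounds of 17.5% and 17.6%. Galnt14 had 0 counts in both libraries, which allows up to 0.106 and 0.122 CPM (counts scaled by library total). Galnt9 had 0 and 1.

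Among the core and branching enzymes, the pair that makes the galactose core was the highest in the first library, and in the second Gcnt4 stood between its members. C1galt1c1, the chaperone, was the highest of the step in both and stood at 56.3 TPM (53.9 to 58.8) and 39.9 TPM (37.4 to 42.5). C1galt1, the enzyme, stood at 33.3 TPM (31.9 to 34.7) and 15.4 TPM (14.2 to 16.6). The chaperone was thus the higher of the pair in both libraries, with intervals that do not overlap. Both are of low GC content (39.1% and 39.8%) and both were called higher in the first library, with ratios of -1.77 (SE 0.056) and -2.39 (SE 0.064). Without the GC trend these were 0.39 and -0.33, and neither was called.

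Gcnt enzymes add N-acetylglucosamine branches. Gcnt4 stood at 15.7 and 19.4 TPM and Gcnt2, which branches long lactosamine chains, at 9.94 and 14.8 TPM. On nuclear TPM these were 56.6 and 24.7 for Gcnt4 and 35.9 and 18.8 for Gcnt2. Gcnt3, the enzyme of mucin-secreting epithelia, stood at 3.93 and 9.48 TPM and Gcnt1 at 1.78 and 1.61 TPM. The order Gcnt4, Gcnt2, Gcnt3, Gcnt1 was the same in both libraries. B3gnt6, which makes the alternative core typical of colonic mucin, had 17 and 23 counts (0.26 and 0.56 TPM), and Gcnt7 had 0 in both. Of 7 genes of this step tested, 0 were called higher in the second and 3 in the first library (C1galt1, C1galt1c1 and Gcnt1). The backgrounds over all genes tested were 40.2% and 27.5%, and the median GC content of the step was 46.2%. With the trend removed, the 1 gene called was B3gnt6, at -3.63, higher in the first.

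The chain extension step held the highest ratios of the set. B4galnt2, which caps chains with N-acetylgalactosamine to form the Sda blood group antigen of the gut, led the step in both, at 85.2 TPM (82.6 to 88.0) and 243 TPM (237 to 248). On nuclear TPM it stood at 308 and 309, its ratio of 0.24 (SE 0.029) was below 2-fold, and without the GC trend it was -0.21. Its gene lies on the minus strand at chr11:95865943-95914891.

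B4galnt1, which makes complex gangliosides from simple ones, had 13 and 6729 counts, or 0.19 TPM (0.101 to 0.325) and 156 TPM (152 to 159). It ranked in place 50 of the 77 in the first library and in place 3 in the second. The ratio was 8.33 (SE 0.39) and remained 3.11 without the GC trend (binomial test, adjusted p = 5.34e-33). B3galt4, another ganglioside enzyme, had 0 and 239 counts, so that its level in the second was at least 51.4-fold higher when the 0 is set to 3 counts. B4galnt3 had 23 and 1089 counts, with ratios of 4.90 (SE 0.30) and, without the GC trend, 1.41. These 3 genes were called higher in the second library under both treatments of GC content. For B3galt4 the ratio was 8.27 (SE 2.04), or 3.56 without the GC trend (binomial test, adjusted p = 0.00845). The B3galt4 ratios depend on the prior counts added to its 0 in the first library. Its bound of 51.4-fold holds before removal of the GC trend only. Whether a lower bound after removal stays at 2-fold or more was not tested.

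The B3gnt enzymes add the N-acetylglucosamine of lactosamine repeats. B3gnt3, which extends mucin cores, stood at 8.58 and 114 TPM. Its ratio of 2.46 (SE 0.069) came to 0.19 without the GC trend. B3gnt5, which starts the lacto series of glycolipids, was among the 4 genes of this step called higher in the first library (1.41 and 0.82 TPM, ratio -2.03, SE 0.21). B3gnt8 had 0 and 37 counts and B3gnt4 had 0 in both. Of 8 B3gnt genes tested, B3gnt6 of the core step included, 6 were called higher in the second and 1 in the first library. Without the GC trend 1 and 2 were called. The backgrounds over all genes tested were 40.2% and 27.5%, or 17.5% and 17.6% without the trend. The median GC content of the family was 55.7%.

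All 7 B4galt genes, which add galactose, reached 1 TPM in the second library, and 5 of them also did in the first. The first-library level of B4galt3 was all on the retained-intron transcripts B4galt3-204, B4galt3-206 and B4galt3-207. Its coding transcript B4galt3-201 held 0% and 61.55%. B4galt6 (29.5 and 27.6 TPM), which makes lactosylceramide, and B4galt4 (16.7 and 22.0 TPM) ranked above B4galt1 (14.5 and 34.3 TPM) in the first library, whereas B4galt3 (2.42 and 35.2 TPM), B4galt5 (1.95 and 35.1 TPM) and B4galt1 were the highest in the second. B4galt6 was called higher in the first library at -1.37 (SE 0.034), a call lost at -0.98 with totals without mitochondrial genes. The intervals of B4galt1, B4galt3 and B4galt5 overlap in the second library, so their order there is not resolved. B4galt1 had a ratio of -0.034 (SE 0.046) and was called higher in the first library at -2.30 without the GC trend. That trend was read at 54.2% GC, the mean over its annotated transcripts. All of its level was on B4galt1-201, of 50.6% GC, and near that value the median log2 ratio of all tested nuclear genes was 0.56. Whether the call holds at the GC content of that transcript was not tested. B4galt3 overlaps Ppox on the opposite strand (1.91 and 23.6 TPM), and the sources used here do not say whether counting used strand.

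The B3galt genes, which make the alternative galactose linkage, were low. B3galt2 had 182 and 46 counts and B3galt1 had 36 and 13, and both were called higher in the first library with ratios of -2.61 (SE 0.24) and -2.07 (SE 0.46). Without the GC trend, whose removal took away nearly all of the B3galt2 difference (0.086 was left), neither was called. Over the 23 tested chain extension genes, 14 (60.9%) were called higher in the second and 4 (17.4%) in the first library. The backgrounds over all genes tested were 40.2% and 27.5%, and the median GC content of the step was 54.2%. With the trend removed, 4 (17.4%) and 5 (21.7%) were, beside backgrounds of 17.5% and 17.6%.

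Fut8, which places the core fucose of N-linked chains, was the most abundant fucosyltransferase, at 52.3 TPM (50.7 to 53.9) and 45.6 TPM (43.8 to 47.5). It alone made up most of the fucosyltransferase sum of 62.9 and 65.0 TPM. Its ratio of -1.44 (SE 0.037) came to 0.038 without the GC trend, a difference that was not called. Fut4, which makes Lewis x type structures, followed at 6.67 and 13.8 TPM, and Fut11 at 3.62 and 3.81 TPM.

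Fut2, the secretor enzyme of gut epithelium that marks the surface with fucose, had 5 and 22 counts (0.06 TPM, 0.0195 to 0.140, and 0.43 TPM, 0.269 to 0.651). Its relative Fut1 had 2 and 16 counts, Fut7 had 1 and 7, and Fut9 had 5 and 0. Of the 8 genes 3 reached 1 TPM, the same 3 in both libraries. Of 5 tested, 1 was called higher in the second library (Fut2) and 2 in the first (Fut8 and Fut11). Over all genes tested the shares called were 40.2% and 27.5%. The Fut2 call was lost with DESeq2 size factors (1.35) and the Fut11 call with totals without mitochondrial genes (-0.81). Without the GC trend the 1 gene called was Fut4, at -1.75, higher in the first.

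Sialyltransferases were dominated by St3gal4, which adds sialic acid to the galactose end of lactosamine chains. It had 8235 and 27173 counts, or 151 TPM (148 to 155) and 779 TPM (770 to 789), from chr9:35046576-35119268 on the minus strand. On nuclear TPM these were 547 and 994. The ratio of 1.09 (SE 0.018) was called, and without the GC trend it was 0.0064 (binomial test, adjusted p = 0.784). St3gal6, which acts on similar chains, was the second sialyltransferase of the first library at 56.1 TPM (54.1 to 58.2) and the third of the second at 39.3 TPM (37.1 to 41.5). It was called higher in the first library with a ratio of -1.92 (SE 0.049), and again without the GC trend at -1.54.

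St6galnac2, which sialylates mucin-type chains near the protein, stood at 3.32 and 49.8 TPM, with a ratio of 2.30 (SE 0.094) that came to 0.15 without the GC trend. A transcript on the opposite strand, 1810032O08Rik, overlaps it (0.64 and 8.95 TPM). Its paralog St6galnac1 had 0 counts in both libraries. St6gal1, the main enzyme for the other sialic acid linkage on N-linked chains, stood at 3.82 and 6.02 TPM with a ratio of 0.051 (SE 0.14). St3gal1, which caps the galactose core of mucin chains, stood at 0.85 and 8.31 TPM, called at 2.00 (SE 0.14) and below 2-fold without the GC trend at 0.99.

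The St8sia genes, whose products add sialic acid to sialic acid, were low. St8sia4, a polysialic acid enzyme, led them at 5.70 and 2.55 TPM with a ratio of -2.43 (SE 0.10), and -0.27 without the GC trend. St8sia6 had 209 and 52 counts, with ratios of -2.63 (SE 0.22) and -1.38, and was called higher in the first library both times. By family, 4 of 6 tested St3gal genes and 3 of 4 St6galnac genes were called higher in the second library, and 4 of 5 St8sia genes in the first, beside backgrounds of 40.2% and 27.5% over all genes tested. The difference between the families was not tested. The median GC content of these families was 52.9%, 52.1% and 45.8%. Without the GC trend, 0 of the 16 tested sialyltransferases were called higher in the second and 6 (37.5%) in the first library. The backgrounds were then 17.5% and 17.6%.

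Some values depend on how reads were divided between overlapping genes on the same strand. B3gnt2, the main enzyme of long lactosamine chains, had 16.1 and 570 expected counts (0.19 and 17.3 TPM). Gm28048, an overlapping protein-coding gene at chr11:22834744-22982090, had 1310 and 750 counts. Their sums were 1326 and 1320. The ratio was 4.48 for B3gnt2 alone and -0.64 (SE 0.056) for the sum, so the direction called for B3gnt2 is not that of the locus. With the GC trend of B3gnt2 taken off, the sum gave 0.018. Galnt2 had 27.1 and 890 counts and the overlapping Gm20388 had 80.9 and 852. Here the sums were 108 and 1742, and the ratio was 4.38 for Galnt2 alone and 3.37 (SE 0.14) for the sum. With the GC trend of Galnt2 taken off, the sum gave 0.83, below 2-fold, although both B3gnt2 and Galnt2 are among the genes called without the GC trend. B4galt2 (52.1 counts in the second library) shared reads with Ccdc24 (18.9). Galnt4 overlaps Poc1b on the same strand, but both had whole counts in both libraries. Without B3gnt2, Galnt2 and B4galt2, 25 genes were called higher in the second and 19 in the first library.

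**Figure D5:**
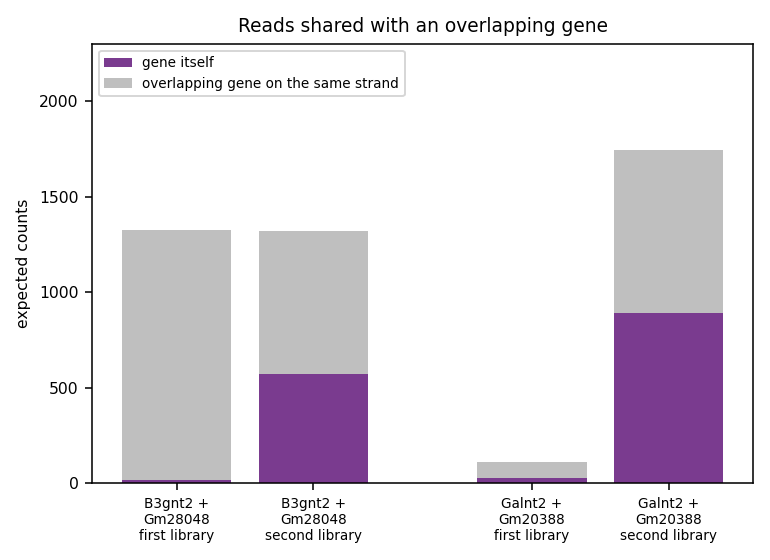
Expected counts (vertical axis) of B3gnt2 and Galnt2 (purple) stacked with those of the overlapping gene on the same strand (grey) in each library, 1 library per bar. The 2 bars of the B3gnt2 locus are equally tall, near 1326 and 1320 counts, although the purple part goes from 16.1 to 570, and the Galnt2 locus goes from 108 to 1742.

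Transcript tables were read for the 14 genes that reached 10 TPM in each library, of which 6 had 2 or more transcripts at 1 TPM or more. The same transcript led in both libraries for 4 of them. Fut8-202 held 94.4% and 78.7% of the Fut8 level, Galnt1-208 held 93.1% and 86.8% of Galnt1, and Galnt7-201 held 97.5% and 88.8% of Galnt7. Galnt3-201 went from 93.3% to 51.1%, and a processed transcript of 754 bases, Galnt3-204, went from 0% to 45.1% on 66.3 counts.

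The leading transcript differed for the other 2 genes. In B4galt4, B4galt4-204 held 68.9% and 0%, and B4galt4-201 held 0% and 53.1%. In St3gal6, St3gal6-201, whose coding start is among the 5 shown, held 81.4% and 29.6%, and St3gal6-202 held 13.7% and 39.0%. Galnt2, which did not reach 10 TPM in the first library and is named here after its values were seen, had all of its first-library TPM on a processed transcript of 511 bases (27.1 counts), whereas the 4113-base coding transcript Galnt2-201 held 81.2% in the second. These shares are estimates from 1 library each and carry no error.

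The wider pathway was read from 10 lists of donor sugars, transporters, acceptors and other enzymes, in all 93 genes, of which 84 were tested. The same test called 34 of them higher in the second and 22 in the first library, or 15 and 19 without the GC trend, beside the backgrounds given above. Muc17 was not matched by symbol in these tables.

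Sialic acid supply was led by Cmas, which activates sialic acid (49.5 and 79.7 TPM). Of its 5 genes 1 was called higher in the second library, Nans (1.79 and 32.4 TPM), and 2 in the first, the transporter gene Slc35a1 (10.5 and 11.3 TPM) and the phosphatase gene Nanp (5.71 and 0.85 TPM, 198 and 3 counts). Nans and Nanp, which encode consecutive enzymes of sialic acid synthesis, kept these opposite calls without the GC trend, at 1.45 and -5.62. Cmas (-1.41) and Gne (-1.03) were then also called higher in the first library. In fucose supply, Gmds (27.5 and 65.4 TPM) was the highest in the first library and Slc35c2 (3.20 and 142 TPM) in the second. Of its 6 genes 4 were called higher in the second and 1, Fpgt (17.1 and 10.8 TPM), in the first library. After removal of the trend 1 was called in each direction, the GDP-fucose synthase gene Tsta3 (0.30 and 73.8 TPM) in the second and Fuk (0.37 and 10.5 TPM, ratio -1.48) in the first.

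Among the 12 genes that supply galactose and amino sugars, 4 were called higher in each library. Galm, the sugar epimerase gene, had the highest mean level (65.3 and 159 TPM). Ugp2 (122 and 63.7 TPM), Slc35a3 (69.5 and 40.6 TPM) and Uap1 (30.8 and 51.2 TPM) followed by mean level. Without the GC trend 4 were called higher in the second library and 1, Slc35a3, in the first. N-glycan branching was led by Mgat4a (118 and 81.9 TPM). Of its 10 tested genes 4 were called in each direction, and without the GC trend 0 were called higher in the second and 5 in the first library, among them Man1a (49.4 and 48.9 TPM) and Mgat2 (46.9 and 41.3 TPM), which trim and extend N-linked chains.

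In the list of other terminal and blood group enzymes, Ugcg, which makes glucosylceramide, led at 55.4 and 39.7 TPM, 3 of 10 were called higher in the second and 4 in the first library, and Abo had 0 counts in both. Sulfation was led by Gal3st2 (38.4 and 191 TPM), a galactose sulfotransferase gene whose paralogs Gal3st2b and Gal3st2c may share reads with it, and 3 of 8 were called higher in the second and 1 in the first library. The 3 genes of sialic acid O-acetylation and hydroxylation included Siae (12.9 and 22.7 TPM) and gave 0 and 2 calls. For these 3 lists the counts without the GC trend were 1 and 3, 0 and 2, and 0 and 1.

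Among enzymes that remove sugars, the fucosidase gene Fuca2 (205 and 128 TPM) was the highest in the first library and Fuca1 (20.1 and 228 TPM) in the second. Of 10 tested, 7 were called higher in the second and 1 in the first library, and without the GC trend 2, among them Fuca1, and 0. Of the mucins and mucus proteins, Muc13 (231 and 940 TPM), Muc3 (206 and 736 TPM) and Muc2 (138 and 581 TPM) stood in that order in both libraries. Fcgbp (3.42 and 1463 TPM) was above them in the second library and far below them in the first. Of 7 tested, 4 were called higher in the second and 0 in the first library, and without the GC trend 3 and 0. Muc2 and Fcgbp are also goblet cell markers, of whose 7 genes 6 were called higher in the second library without the GC trend. The Golgi homeostasis list, led by Golph3 (96.3 and 78.2 TPM), which retains glycosyltransferases in the Golgi, gave 4 and 3 calls of 13, and 3 and 3 without the GC trend.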

How the data were processed

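Poly(A) RNA of 1 small intestine was sequenced in 2 technical libraries. Per the file headers, the authors deposited RSEM-type gene and transcript tables, made on mm10 with annotation M4 according to the deposited notes. Aligner, versions and read filters: not given in the sources used here. The deposited expected counts are estimates in which reads matching several features are divided among them. The deposited TPM values are length-corrected and set to the same total for every library. The deposited FPKM values are per kilobase and scaled to mapped fragments. The deposited isoform percent is each transcript's part of its gene's TPM.

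Expected counts were rounded to whole numbers. Symbols, positions and GC content (mean over a gene's transcripts) came from GENCODE M21 on mm10, which matched 42462 of 43346 genes by identifier. Another 26345 entries that are not Ensembl genes held 0 counts and were left out. Each gene with 20 or more counts was tested by a two-sided exact binomial test (scipy 1.17.1) with the split expected from TMM library sizes over all genes (edgeR 4.0.16), adjusted by Benjamini-Hochberg. A quasi-likelihood fit was not possible with 1 library on each side, which leaves no residual degrees of freedom. P-values measure counting error between these libraries, and reads lack molecular identifiers. The test was tested on simulated data. Log2 ratios had 0.5 prior counts. TPM intervals are exact Poisson at 95% and cover counting error only, and a fold against 0 counts is a lower bound against 3 counts in that library. The GC trend was a lowess of span 0.3 over tested nuclear genes (statsmodels 0.14.6). BLAST 2.17.0 (95% identity, 100 bases) identified nuclear copies of mitochondrial genes.

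The 77 genes and the lists were chosen with earlier results of these data known. Genes were named by rule: up to 8 of highest mean TPM in each step, those at 0 counts in both libraries, the 8 highest and 8 lowest ratios among called genes, and up to 4 of highest mean TPM in each pathway list. Other genes named were chosen after their values were seen. Alternatives were DESeq2 1.42.0 size factors, totals without mitochondrial genes, other count minimums, prior counts, units and thresholds.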

Additional observations from a re-analysis of the deposited data

How the results depend on the processing

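No paired analysis was possible because the series has 1 group. With DESeq2 size factors the counts of called genes were within 1.5 times those reported, and the median log2 ratio of all tested genes was 0.22. With the GC trend removed, 7 of the 77 genes (not 28) and 15 pathway genes (not 34) were called higher in the second library. The median log2 ratio of the 66 tested genes among the 77 turned to -0.13. Removing the trend changed the sign of the ratio for 21 of the 66 tested genes. Among the genes named by rule and tested, it turned the ratios of B4galnt2 to -0.21, Fut8 to 0.038, B4galt4 to 0.39, St6gal1 to -0.72, St6galnac6 to -0.33, B4galt2 to -0.97, Gcnt3 to 0.76, B3galt2 to 0.086, Galnt6 to -0.35, Galnt12 to -2.56, C1galt1c1 to 0.39 and B4galt3 to -0.21. The 5 genes that passed to the opposite call, given above, are also among the 21. All these ratios were read at mean GC content, 58.0% for St6galnac6, whose transcript St6galnac6-201 had 56.4%. Of the 46 named and tested genes, 44 had the same direction and the same side of the threshold with DESeq2 size factors, called or not, and 11 did without the GC trend. Scaling to totals without mitochondrial genes turned B4galt1 to 0.36, Gcnt3 to 0.38, Fut4 to 0.16 and B3gnt6 to 0.19. It moved the median of all tested genes to 0.66 and that of the 66 to 0.54. On log2(TPM + 1) the latter was 0.57 and on log2(FPKM + 1) 0.41. At 5 TPM, 18 of the 77 reached the level in both libraries, and in single libraries at 1 TPM 32 to 53 did. The mean share of TPM, 0.143%, was 0.268% of nuclear TPM, 0.291% of counts, and 0.0731% to 0.213% in single libraries. The nuclear scaling and the count without read-sharing genes were added after seeing the data. The cause of these changes was not tested. Genes under 20 counts were not tested, so differences in them are not detectable at this depth.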
